A study of Mus musculus with 4 samples.

Results

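The miRNAs antisense to Rtl1 come from 5 hairpins on mouse chromosome 12, Mir431, Mir433, Mir127, Mir434 and Mir136, and were measured here in plasma after acute myocardial infarction (AMI). They were chosen by name, and of 9 names (mature miRNAs of either arm) 8 had an entry among the 921 miRNA entries of the count table. No row was found for miR-431-3p, which was not analysed here. The study sequenced plasma small RNA from 2 AMI libraries and 2 Sham libraries. By its methods the mice were male C57BL/6, 8 weeks old. In AMI mice the left anterior descending artery of the heart was tied off for good, and Sham mice went through the same surgery with no artery tied. All 4 samples are plasma, the cell-free part of blood, and carry no transgene or drug treatment by their labels. Values of a group are given in the order of library 1 and library 2. The labels do not say whether each library was made from 1 mouse or from a pool, nor when the blood was drawn. What the p-values measure is thus the spread from library to library, which may be technical.

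These miRNAs belong to the imprinted Dlk1-Dio3 region. Its non-coding RNAs, among them the miRNA hairpins, are made from the maternal chromosome, while Dlk1 and Rtl1 are made from the paternal chromosome. Rtl1 encodes a protein derived from a retrotransposon that the placenta and skeletal muscle need, and the miRNAs transcribed antisense to it pair perfectly with its mRNA and can direct its cleavage. Each hairpin is cut into a duplex of a 5p and a 3p arm. One arm is usually kept in an Argonaute protein and the other is more often lost, so that the ratio of the arms is set after transcription.

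In the GRCm38 annotation the 5 hairpins span 4942 bp on the plus strand of chromosome 12, and all 5 lie within the coding exon of Rtl1, which is on the minus strand (gene chr12:109589193-109600330, coding sequence chr12:109590172-109595403). The order is Mir431 (chr12:109590447-109590537), Mir433 (chr12:109591715-109591838), Mir127 (chr12:109592846-109592915), Mir434 (chr12:109594506-109594599) and Mir136 (chr12:109595327-109595388). Mir136 lies just inside the start of the Rtl1 protein and Mir431 near its end. The 9 mature sequences are shown because each, as its reverse complement, occurred exactly once in the Rtl1 transcript with 0 mismatches. Capitals mark the seed, bases 2 to 8, with which a miRNA finds its targets. Sequences are those of RefSeq (GRCm38.p6), 5′ to 3′.
mmu-miR-431-5p: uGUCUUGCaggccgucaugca
mmu-miR-431-3p: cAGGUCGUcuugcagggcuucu
mmu-miR-433-3p: aUCAUGAUgggcuccucggugu
mmu-miR-127-5p: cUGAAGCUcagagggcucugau
mmu-miR-127-3p: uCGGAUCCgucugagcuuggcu
mmu-miR-434-5p: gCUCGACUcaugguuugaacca
mmu-miR-434-3p: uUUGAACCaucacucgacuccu
mmu-miR-136-5p: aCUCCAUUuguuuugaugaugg
mmu-miR-136-3p: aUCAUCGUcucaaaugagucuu

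The 9 members had 9 different seeds, and for none of them did another of the 1679 mature mouse miRNA names in that table carry the same seed. They thus form a group by position and not by seed. The arms of miR-434 resemble each other in part, with a longest shared run of 9 bases, and so do those of miR-431, with 10. Those of miR-127 and miR-136 shared at most 5 and 4 bases. A further hairpin, Mir3071, lies on the Rtl1 strand and covers all 62 bp of Mir136, and 20 bases of miR-3071-3p are the exact reverse complement of miR-136-5p.

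The AMI libraries held 8952264 and 11410698 miRNA UMIs and the Sham libraries 7449612 and 4831827. A UMI is a random tag that lets PCR copies of a molecule be counted once. The table held no entry whose counts in AMI 1 and Sham 2 were both under 10 unless both were 0, and none for AMI 2 and Sham 1. The lowest count of any member was 54, well above this range. Together the 8 members took 0.0577% of the miRNA UMIs in AMI 1 (95% interval 0.0561 to 0.0593) and 0.0484% in AMI 2 (0.0471 to 0.0497). They took 0.101% in Sham 1 (0.0986 to 0.103) and 0.167% in Sham 2 (0.163 to 0.170). Both AMI libraries were below both Sham libraries, and the Sham libraries also differed from each other by more than counting error. Such shares depend on everything else in the plasma, so fewer molecules of a miRNA and more of the others cannot be told apart. Of miRNAs typical of possible sources, the 4 of hepatocytes all rose and made up 8.30% and 10.2% of the AMI libraries but 0.911% and 2.53% of the Sham libraries. Of the 3 of striated muscle 2 rose (8.54% and 8.45% against 1.81% and 1.38%), and the 3 of heart all rose (0.147% and 0.103% against 0.00246% and 0.00116%), with miR-208a-5p at 0 in both Sham libraries. The third of striated muscle, miR-206-3p, lay lower in both AMI libraries (2459 and 3855 against 6561 and 5709 CPM, the scaled counts explained below; log2 fold change −0.96, adjusted p = 0.0808 from edgeR). Of the 4 of neurons 3 rose (0.223% and 0.219% against 0.123% and 0.0830%). Nearly all of this share was miR-128-3p, with 19542 and 24450 UMIs against 9073 and 3925. The one not called, miR-124-3p, had 34 and 16 UMIs against 15 and 11 (log2 fold change 0.50, adjusted p = 0.506 from edgeR). Neither the 6 of red blood cells (36.5% and 35.5% against 39.1% and 25.3%) nor the 2 of platelets and myeloid cells (2.76% and 2.55% against 1.40% and 2.27%) passed the test for any miRNA. The largest part of the red blood cell share was miR-16-5p, with 2048913 and 2893548 UMIs in AMI against 1553978 and 652831 in Sham plasma. Within the red blood cell list the directions were mixed. The log2 fold change was −1.26 for miR-451a (adjusted p = 0.0536 from edgeR) and −0.37 for miR-144-5p. It was positive for miR-144-3p (0.27), miR-486a-5p (0.15), miR-486b-5p (0.32) and miR-16-5p (0.74). The log2 ratio of miR-451a to miR-23a-3p, in common use as an index of haemolysis, was 1.02 and 0.52 in AMI but 3.02 and 1.56 in Sham plasma. Both AMI libraries thus lay below both Sham libraries in this index. Of the Sham libraries, Sham 1 had the higher index and Sham 2 the higher share of the members. The part of haemolysis and of these sources in the results below was not tested.

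Levels are given in CPM, in which UMI counts are set against the miRNA total of their library, corrected by the TMM factor of edgeR. In Sham plasma miR-127-3p was the most abundant member, at 426 ± 86.1 CPM (SD, n = 2). It was followed by miR-434-3p at 278 ± 12.6 and, lower down, by miR-434-5p at 150 ± 77.5, miR-431-5p at 113 ± 66.6, miR-136-5p at 97.7 ± 8.36 and miR-136-3p at 81.9 ± 27.0. The libraries of these last 4 overlapped, so their order was not resolved. miR-127-5p stood at 35.4 ± 10.8 and miR-433-3p at 11.9 ± 6.67, each below all libraries of the members above it. In AMI plasma the order at the top was turned, with miR-434-3p at 239 ± 8.87 CPM and miR-127-3p at 169 ± 5.51, which did not overlap. The lowest members were again miR-127-5p (15.9 ± 3.32) and miR-433-3p (7.94 ± 3.31).

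**Figure D1:**
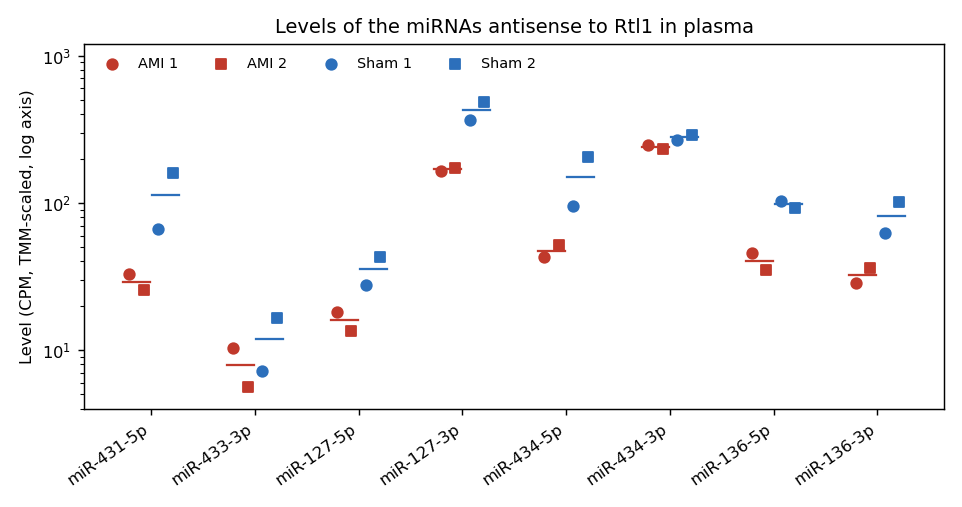
Levels of the 8 members in each library, in CPM on a log axis, ordered along the chromosome. Points are libraries and short lines the means of the 2 libraries of a group; miR-433-3p is the member whose AMI and Sham libraries overlapped, and miR-434-3p kept nearly the same level in all 4 libraries.

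To see whether these miRNAs differed between AMI and Sham plasma, UMI counts were compared with the quasi-likelihood test of edgeR over all 772 miRNAs that passed its filter on low counts, all 8 members included. Most members fell. Of the 8, 6 were lower in AMI and 0 higher at an adjusted p under 0.05, beside 12.7% of all tested miRNAs called lower, 14.8% called higher and 27.5% called either way. The 6 came from 4 hairpins, and arms of one hairpin share their precursor and are not independent. The median log2 fold change of the members was −1.30, against 0.04 over all miRNAs tested. All 8 log2 fold changes were below 0, and DESeq2 also called 6 members lower and 0 higher. Over all miRNAs 114 were called higher and 98 lower, with 86 and 147 under scaling by library size alone and 129 and 74 under scaling by the 6 reference miRNAs of the study. Those scalings put the median of all miRNAs at −0.23 and 0.21 and that of the members at −1.58 and −1.13. Scaled by the references, one of which is miR-434-3p, the number of members called lower was 3, and scaled by the other 5 references it was 4. The median of the members was −1.31 without AMI 1, −1.23 without AMI 2, −1.48 without Sham 1 and −1.01 without Sham 2. Without AMI 1 or AMI 2 most or all of the member calls were lost, and fewer of all miRNAs were called as well. In each of these fits the group with 1 library left is assumed to vary like the other pair. The p-values of such a fit rest on the spread of that pair alone. Without a Sham library the wide Sham spread of some members thus drops out. In 7 of the 8 members both AMI libraries lay below both Sham libraries, beside 30.4% of all miRNAs tested.

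**Figure D2:**
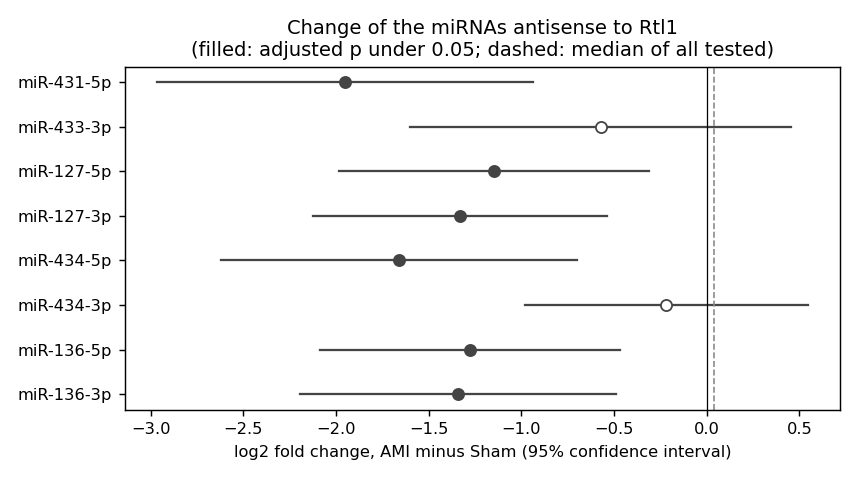
Log2 fold change of each member, AMI minus Sham, with its 95% confidence interval from edgeR. All 8 points lie below 0, from −1.95 for miR-431-5p to −0.22 for miR-434-3p, and filled points mark the 6 members with an adjusted p under 0.05.

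miR-431-5p, known in mouse muscle progenitors for repressing Pax7, had the largest fall of the 8. It had 289 and 245 UMIs in AMI plasma against 497 and 926 in Sham plasma. Both AMI libraries were thus lower although they were sequenced more deeply, and the Sham libraries stood far apart at 66.0 and 160 CPM. The log2 fold change was −1.95 (standard error 0.46, 95% confidence interval −2.97 to −0.94, adjusted p = 0.0104 from edgeR). Without Sham 2, the library with the highest level, it was −1.21, and without AMI 2 it was −1.78 and the call was lost. Over the alternatives with all 4 libraries the adjusted p from edgeR or DESeq2 ranged from 0.000126 to 0.0315.

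miR-433-3p, the least abundant member, is the one whose groups overlapped. It had 90 and 54 UMIs in AMI plasma against 54 and 96 in Sham plasma, or 10.3, 5.60, 7.17 and 16.6 CPM. AMI 1 was above Sham 1. The log2 fold change was −0.57 (standard error 0.47, −1.60 to 0.46, adjusted p = 0.399 from edgeR). Its direction rested on Sham 2, being 0.11 without that library, and without Sham 1 it was −1.07. The other arm of this hairpin, miR-433-5p, was not analysed here. Whether miR-433-3p differed in its response from the other members was not tested.

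Both arms of Mir127, a hairpin that the mouse placenta needs for normal growth, fell. miR-127-3p had 1448 and 1670 UMIs in AMI plasma against 2753 and 2817 in Sham plasma. In CPM the AMI libraries were close together at 165 and 173, and the Sham libraries stood at 365 and 487.1. Its level was 2.52-fold lower in AMI (log2 fold change −1.33, standard error 0.36, −2.12 to −0.54, adjusted p = 0.0190 from edgeR). The less abundant arm, miR-127-5p, had 160 and 131 UMIs in AMI plasma against 209 and 249 in Sham plasma. It was 2.22-fold lower (log2 fold change −1.15, standard error 0.38, −1.99 to −0.31, adjusted p = 0.0432). Its groups did not overlap in CPM (18.3 and 13.6 against 27.7 and 43.1). The log2 fold change of miR-127-3p stayed at −1.27 when AMI 1 was left out and at −1.37 when AMI 2 was, but with adjusted p of 0.261 and 0.211 the call did not hold. For miR-127-5p it did not hold in these fits (−1.35 and −0.95, adjusted p of 0.188 and 0.417), without Sham 2 (0.0645), with at least 10 UMIs required in every library (0.0536), with the replicate block (0.0903) and under scaling by the 6 or the 5 references (0.100 in both). Over the alternatives with all 4 libraries its adjusted p ranged from 0.0140 (DESeq2) to 0.100 (edgeR, scaling by the references). That of miR-127-3p ranged from 0.000146 (DESeq2) to 0.0397 (edgeR with the replicate block).

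One arm of Mir434 fell and the other did not pass the test. miR-434-3p, one of the references for qRT-PCR that the study picked from these libraries, had 2148 and 2245 UMIs in AMI plasma against 2029 and 1660 in Sham plasma. These are 245 and 233 CPM against 269 and 287, the narrowest spread of any member. The log2 fold change was −0.22 (standard error 0.35, −0.98 to 0.55, adjusted p = 0.696 from edgeR), and it passed the test under none of the alternatives (adjusted p of 0.374 to 0.951). Since it was picked for its even level here, that is not independent evidence. Its partner miR-434-5p, with 378 UMIs in AMI 1, 715 in Sham 1 and 1183 in Sham 2, was at 43.2 and 51.5 CPM in AMI and at 94.9 and 205 CPM in Sham plasma. The groups did not overlap, and Sham 2 was again the highest. It was 3.16-fold lower in AMI (log2 fold change −1.66, standard error 0.44, −2.62 to −0.70, adjusted p = 0.0165). Without Sham 2 the log2 fold change was −1.03. Without AMI 1 or AMI 2 it was −1.52 and −1.79, and the call was lost. Over the alternatives with all 4 libraries the adjusted p from edgeR or DESeq2 ranged from 0.000959 to 0.0365.

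Both arms of Mir136 fell. miR-136-5p had 402 and 335 UMIs in AMI plasma against 781 and 531 in Sham plasma, or 45.9 and 34.8 CPM against 104 and 91.8. Its log2 fold change was −1.28 (standard error 0.37, −2.09 to −0.47, adjusted p = 0.0237 from edgeR). miR-136-3p had 250 and 346 UMIs in AMI plasma against 473 and 584 in Sham plasma, or 28.6 and 35.9 CPM against 62.8 and 101. Its log2 fold change was −1.34 (standard error 0.39, −2.20 to −0.49, adjusted p = 0.0241). In neither arm did the groups overlap. Without AMI 1 the log2 fold changes were −1.47 for miR-136-5p and −1.17 for miR-136-3p (adjusted p of 0.181 and 0.316), and without AMI 2 they were −1.09 and −1.52 (0.373 and 0.161). Under scaling by the 6 references the adjusted p was 0.0526 and 0.0519. Over the alternatives with all 4 libraries it ranged from 0.000179 to 0.0535 for miR-136-5p. For miR-136-3p it ranged from 0.00343 to 0.0519, and in both arms DESeq2 gave the lowest value.

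The ratio of the arms of a hairpin in one library needs no scaling between libraries. It could be formed for the 3 hairpins with both arms in the table, Mir127, Mir434 and Mir136. In Mir127 the 3p arm led clearly, with a 3p to 5p ratio of UMIs of 9.05 in AMI 1 (95% interval 7.68 to 10.7), 12.7 in AMI 2 (10.7 to 15.3), 13.2 in Sham 1 (11.4 to 15.2) and 11.3 in Sham 2 (9.93 to 12.9). The AMI libraries spanned the Sham 2 value, so that the groups overlapped. In Mir434 the 3p arm led less, with a ratio of 5.68 in AMI 1 (5.09 to 6.36) and 4.53 in AMI 2 (4.10 to 4.999), but 2.84 in Sham 1 (2.60 to 3.09) and 1.40 in Sham 2 (1.30 to 1.51). No intervals overlapped between any pair of these libraries, and the Sham libraries differed from each other as well. In Mir136 the 5p arm led in AMI 1 and Sham 1 and neither arm led beyond counting error in AMI 2 and Sham 2, with a ratio of 0.622 in AMI 1 (0.529 to 0.730), 1.03 in AMI 2 (0.886 to 1.20), 0.606 in Sham 1 (0.539 to 0.680) and 1.10 in Sham 2 (0.976 to 1.24). Here the groups overlapped and libraries of the same number were alike. The intervals of AMI 1 and Sham 1 lay below those of AMI 2 and Sham 2. The labels say nothing of what a number stands for.

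**Figure D3:**
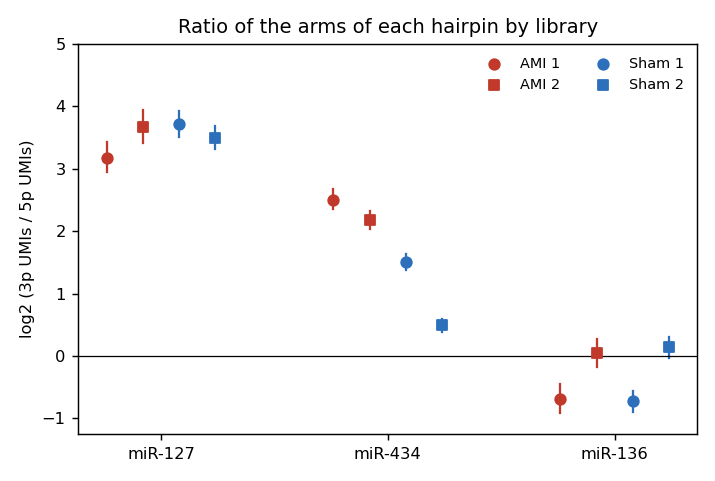
Log2 of the ratio of 3p to 5p UMIs of the 3 hairpins in each library, with exact 95% counting intervals. Above 0 the 3p arm leads; for miR-434 both AMI libraries lie above both Sham libraries, whereas for miR-127 and miR-136 the groups overlap.

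The change of this ratio between AMI and Sham was tested with the arm by group term of edgeR over 199 hairpins. Of the 3 hairpins, only Mir434 passed, beside 28.1% of all hairpins tested. Its ratio was 2.54-fold higher in AMI, a change of 1.35 on the log2 scale (standard error 0.42, 0.52 to 2.17, adjusted p = 0.00804). The 3p arm made up 85.0% and 81.9% of its UMIs in AMI plasma but 73.9% and 58.4% in Sham plasma. This arm is a reference that the study picked for an even level in these libraries. The change of the ratio thus largely restates the fall of miR-434-5p (log2 fold change −1.66, against −0.22 for miR-434-3p). The groups did not overlap, beside 63.3% of all hairpins tested in which they did not. The change was 0.84 without Sham 2, where it did not pass, and 1.85 without Sham 1. It did not pass when AMI 1 (1.18, adjusted p = 0.221) or AMI 2 (1.51, adjusted p = 0.0997) was left out, and with limma on the log2 ratios the adjusted p was 0.0273. An exact two-sided permutation test over the 4 libraries gave p = 0.333, the smallest that 2 against 2 allows. For Mir127 the change was −0.19 (standard error 0.42, −1.02 to 0.65, adjusted p = 0.832) and for Mir136 −0.02 (standard error 0.40, −0.80 to 0.75, adjusted p = 0.961). These intervals leave room for changes of up to about 1 on the log2 scale. Across all 199 hairpins 55 had a larger absolute change than Mir434, and the median absolute change was 0.79. The absolute changes of Mir127 and Mir136 were smaller than that median.

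**Figure D4:**
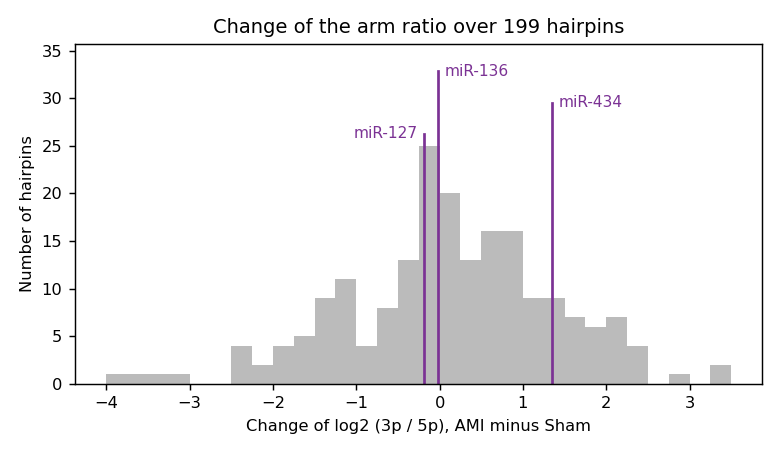
Number of hairpins by the change of log2 (3p / 5p) from Sham to AMI, over the 199 hairpins tested, in bins on a linear axis. Lines mark miR-127 at −0.19, miR-136 at −0.02 and miR-434 at 1.35; the height of the lines has no meaning.

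The members were set beside the other miRNAs of the Dlk1-Dio3 region, from lists of names by stretch. Of the 53 neighbours tested, edgeR called 0 higher and 12 lower, with a median log2 fold change of −0.66. DESeq2 called 0 higher and 16 lower. Over all miRNAs tested 12.7% were lower in edgeR and 16.6% in DESeq2. Both AMI libraries lay below both Sham libraries in 34 of the 53 neighbours, beside 30.4% of all miRNAs tested. At an unadjusted p under 0.05 edgeR had 22 of the neighbours lower and 3 higher. In the stretch from Meg3 to Rtl1, 1 of 10 was lower (3 at an unadjusted edgeR p under 0.05) and the median was −0.19. Both arms of miR-3071, which lie within Rtl1 opposite Mir136, are left out of this count and given apart, though the plot along the region draws them with that stretch. The most abundant miRNAs of the stretch were miR-337-3p (log2 fold change −1.02, adjusted p = 0.0488 from edgeR), miR-337-5p (−0.96, adjusted p = 0.0605) and miR-770-5p (0.69, adjusted p = 0.176). In the Mirg stretch 10 of 38 were lower, 30 had both AMI libraries below both Sham libraries, and the median was −0.86. Its most abundant were miR-382-5p (−0.59, adjusted p = 0.247), miR-379-5p (−2.20, adjusted p = 0.00397) and miR-541-5p (−1.82, adjusted p = 0.00504). In the Rian stretch 0 of 3 passed in edgeR, 1 of them being under 0.05 unadjusted, and 0 in DESeq2, with miR-341-3p at −1.12 (adjusted p = 0.124), miR-370-3p at −0.40 (adjusted p = 0.526) and miR-1188-5p at 0.25 (adjusted p = 0.963). This last had 12 and 0 UMIs in AMI plasma against 0 and 7 in Sham plasma. A further 11 neighbours did not pass the filter, 10 of them at 0 in both AMI 1 and Sham 2 or in both AMI 2 and Sham 1. Whether the members fell more than their neighbours was not tested.

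**Figure D5:**
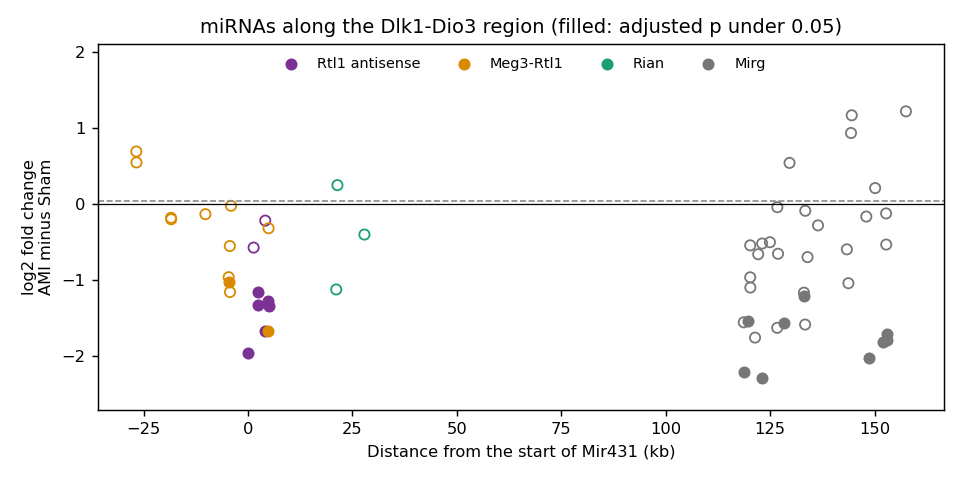
Log2 fold change, AMI minus Sham, of the miRNAs tested along the Dlk1-Dio3 region against the distance of the mature miRNA from the start of Mir431 in kb. Filled points had an adjusted p under 0.05, the dashed line is the median of all 772 miRNAs, and 35 of the 38 Mirg miRNAs tested are drawn, those with a position in the table of sequences.

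Opposite to Mir136, on the strand of Rtl1 itself, miR-3071-3p had 30 and 37 UMIs in AMI plasma against 92 and 63 in Sham plasma. Its log2 fold change was −1.67 (adjusted p = 0.00751 from edgeR), so it was lower like the miR-136-5p to which it is complementary. Its partner miR-3071-5p, at 65, 78, 58 and 68 UMIs in AMI 1, AMI 2, Sham 1 and Sham 2, was at −0.32 (adjusted p = 0.583).

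The pattern of a member over the 4 libraries was compared with that of 347 other miRNAs by the SD of the log2 ratio of their UMIs, for the 3 most abundant members. This is a description over 4 libraries, and the depth of a library cancels in the ratio. For miR-127-3p the smallest SDs were those of miR-574-5p (0.104), let-7b-5p (0.113) and miR-126b-5p (0.116), against a median of 0.905. For miR-434-3p they were those of miR-342-3p (0.0683), miR-381-3p (0.0936) of the Mirg stretch and miR-16-1-3p (0.104), against a median of 0.615. miR-342-3p is another reference of the study, and references picked for an even level here will lie close by that choice. For miR-434-5p they were those of miR-199a-5p (0.0936), let-7k (0.137) and miR-183-5p (0.187), against a median of 1.08. Among the members themselves the most constant ratio was that of miR-127-3p to miR-136-3p, from different hairpins, with an SD of 0.154. That of the arms of Mir127 was 0.245, that of the arms of Mir136 0.461 and that of the arms of Mir434 0.891. The largest was 1.06, between miR-431-5p and miR-434-3p.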

How the data were processed

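Small RNA from plasma was sequenced in 4 libraries (AMI 1, AMI 2, Sham 1 and Sham 2) prepared with a UMI kit. The authors deposited, per the file headers, UMI counts and read counts for each miRNA and piRNA entry as whole numbers without normalization. Their processing notes name bcl2fastq 2.18.0.12 and mm10. The sources used here do not name the trimmer, aligner, counter or miRNA annotation. One line that names no entry was left out.

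UMI counts of the miRNA entries were tested with edgeR 4.0.16 in R 4.3.3 (filterByExpr, TMM factors of 0.978, 0.845, 1.01 and 1.20, robust quasi-likelihood fit, two-sided), with Benjamini-Hochberg adjustment over all tested entries and a threshold of 0.05. For the arms, 1 edgeR model held both arms of every hairpin, with library as a block and an arm by group term, adjusted over all hairpins tested. Names holding several miRNAs were left out of it. Both tests were tested on simulated data. Alternatives were DESeq2 1.42.0, limma 3.58.1, other scalings, filters, read counts, blocks and leaving out each library. All members found are named, with partner arms, the miRNAs nearest in pattern (mean of at least 100 UMIs) and the 3 most abundant miRNAs of each neighbouring list. Members and lists were chosen with earlier results of these data known. Sequences are from RefSeq (GRCm38.p6), matched for 9 of 9 names, and Rtl1 from GENCODE M21. Intervals of ratios and shares are exact 95% binomial intervals, which cover counting error only.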

Additional observations from a re-analysis of the deposited data

How the results depend on the processing

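Leaving out a library had the greatest effect on the calls. The number of members called lower was between 0 and 7 when each library was left out in turn, that of all miRNAs called higher between 47 and 165 and lower between 29 and 140, that of hairpins called for the arm ratio between 26 and 49, and that of the 3 member hairpins called between 0 and 1. Scaled by the 6 references, 3 members were called lower. With miRNA and piRNA entries in 1 fit 149 miRNAs or piRNAs were lower. The log2 fold change of miR-433-3p lay between −1.07 (without Sham 1) and 0.11 (without Sham 2). The change of the arm ratio of miR-127 lay between −0.43 and 0.062, turning without AMI 1, and that of miR-136 between −0.45 and 0.41, turning without AMI 1 (0.34) and without Sham 2. On read counts the members took 0.0539% in AMI 1, 0.0442% in AMI 2 and 0.0953% in Sham 1, each just below the interval from UMIs. The causes were not tested. Of the log2 fold changes of members under alternatives, 99 kept their direction and side of the threshold, 19 lost the call, 1 gained it and 1 turned its sign. The replicate numbers do not pair the libraries by any label, and same-numbered libraries did not deviate together (r = −0.17 across the 772 miRNAs). With 2 libraries per group the crossed pairing gives the mirror value of 0.17 by construction. Its pairs, AMI 1 with Sham 2 and AMI 2 with Sham 1, are also those that share the low-count pattern given above. With the replicate number as a block 96 miRNAs were higher and 76 lower, with 5 members lower, miR-127-5p being lost (adjusted p = 0.0903 from edgeR). With the crossed pairing, chosen after seeing the data, 133 were higher and 116 lower, with 6 members lower. Precision is limited by having 2 libraries per group and, for miR-433-3p, by counts of 54 to 96 UMIs.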

Other observations

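The arm ratio could also be tested in 14 other hairpins of the Dlk1-Dio3 region, of which 3 passed at an adjusted p under 0.05 from edgeR, beside 28.1% of all hairpins tested. In Mir329 the 3p to 5p ratio of UMIs was 0.727 and 0.776 in AMI plasma but 2.70 and 2.45 in Sham plasma, a change of −1.77 on the log2 scale (adjusted p = 0.000483). In Mir485 it went the other way, from 0.233 and 0.333 in Sham to 1.08 and 1.10 in AMI libraries, a change of 1.94 (adjusted p = 0.00112). In Mir3071, opposite to Mir136, it was 0.462 and 0.474 in AMI plasma but 1.59 and 0.926 in Sham plasma, a change of −1.37 (adjusted p = 0.0217). These hairpins were chosen after their values were seen, from low counts of 17 to 189 UMIs per arm.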
